A study of Homo sapiens with 2 samples.

Results

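The human mitochondrial genome carries 37 genes, and all 37 were found among the 57820 gene identifiers of the table by their MT- symbols. They comprise 13 mRNAs, 2 rRNAs and 22 tRNAs, of which 28 genes lie on the plus strand of the reference and 9 on the minus strand. They were compared between a CREB1 knockout (KO) library and a CREB1 wild-type (WT) library of HCT116 cells, a human colorectal carcinoma line. Per the labels' protocols, the knockout cells were 1 clone in which CREB1 was absent, picked after the wild-type line had received the PX461 plasmid with nickase Cas9 and guide RNAs against CREB1. Whether the WT culture was also clonal is not stated. DMEM medium with serum, penicillin and streptomycin was used for both cultures, and both RNA samples were depleted of rRNA before stranded total RNA libraries were made. CREB1 is a transcription factor of the cAMP response, and the comparison asks which transcripts differ when it is missing.

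Mitochondrial DNA is transcribed into long precursors from both of its strands. The tRNAs lie between most mRNAs and rRNAs, and their excision releases the neighbouring transcripts, which then differ in stability. The plus-strand genes are transcribed from the heavy-strand promoter and include both rRNAs, 12 mRNAs and 14 tRNAs. Transcription from the light-strand promoter gives MT-ND6, the only mRNA of the minus strand, and 8 tRNAs, and much of the rest of that precursor is noncoding and quickly degraded. The 13 mRNAs encode subunits of the oxidative phosphorylation complexes I, III, IV and V, which are completed by proteins made from nuclear genes.

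The strand of a gene shows in its bases. The first 60 bases of the transcripts with the highest level (MT-CO1), the next highest level (MT-CO3) and the lowest ratio among mRNAs (MT-ND6) are shown with the start codon in capitals. They were read 5′ to 3′ from GENCODE 29 (GRCh38, chromosome M), with MT-ND6 on the minus strand.
MT-CO1: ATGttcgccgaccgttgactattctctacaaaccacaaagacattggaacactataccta
MT-CO3: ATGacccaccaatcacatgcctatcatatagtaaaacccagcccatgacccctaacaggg
MT-ND6: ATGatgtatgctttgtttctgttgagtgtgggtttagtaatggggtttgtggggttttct
Over its whole 525 nucleotides, MT-ND6 held 35.6% G and 7.05% C. The 12 plus-strand mRNAs held 6.28% to 16.2% G and 29.5% to 36.0% C. The GC content of MT-ND6 (42.7%) lay within the range of the plus-strand mRNAs (39.6% to 47.7%). The 8 minus-strand tRNAs held 23.5% to 36.1% G and 10.3% to 21.2% C, with a GC content of 33.8% to 49.3%. The 14 plus-strand tRNAs held 10.3% to 19.1% G and 12.3% to 30.5% C, with a GC content of 23.1% to 45.8%.
The pair of tRNAs with the most counts on each strand are shown whole, with the anticodon in capitals. MT-TV (valine) and MT-TM (methionine) lie on the plus strand, and MT-TC (cysteine) and MT-TQ (glutamine) on the minus strand.
MT-TV: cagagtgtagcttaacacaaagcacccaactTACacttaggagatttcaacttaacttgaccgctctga
MT-TM: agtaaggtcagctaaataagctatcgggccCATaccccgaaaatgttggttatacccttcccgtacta
MT-TC: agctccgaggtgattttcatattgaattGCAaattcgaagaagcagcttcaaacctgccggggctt
MT-TQ: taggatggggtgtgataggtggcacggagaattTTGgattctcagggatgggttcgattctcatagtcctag

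The deposited expected counts, which are estimates of read pairs per gene, summed to 31178312 in the KO library and 34511071 in the WT library. The 5 highest genes held 47.1% of the KO counts and 48.4% of the WT counts. Below, a ratio is KO over WT after scaling of both libraries by the TMM method, and its 95% interval covers counting error only. With 1 library per group, no test between the genotypes was possible, and differences between cultures, clones and library preparations are part of every ratio. CREB1 itself had 499 counts in the KO library and 614 in the WT library, a log2 ratio of -0.23 (interval -0.40 to -0.05). Gene-level counts do not show small insertions or deletions, so CREB1 does not check the genotype label. The epithelial markers EPCAM, KRT8, KRT18, KRT19, CDH1 and CDX2 were expressed in both libraries, between 9.07 and 1580 CPM (counts scaled to a common library size) in the KO library and between 9.72 and 1820 in the WT library. The epithelial gene VIL1 was nearly absent, with 9 and 12 counts in the KO and WT libraries. Of 11 markers of other cell types found in the table, the collagen gene COL1A1 was the only one with a mean of at least 1 CPM (2.78 in KO and 2.47 in WT), and PTPRC, CD3E, COL1A2 and HBB had 0 counts.

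In the KO library the summed tRNAs were lower, as were 6 of the 7 complex I mRNAs, MT-ND6 among them, and MT-ATP6 of complex V. Of the 3 complex IV mRNAs, 2 were higher and MT-CO2 was lower. With total-count scaling the intervals of MT-ND4, MT-ND4L and MT-CO2 reached 0. All 37 genes held 0.127% of the KO counts and 0.113% of the WT counts, and whether reads on the mitochondrial chromosome were partly removed before counting is not stated. Ratios are therefore of the reads that were counted. The 3 classes were compared by their sums. The 13 mRNAs summed to 39030 counts in the KO library and 38099 in the WT library, a log2 ratio of 0.11 (interval 0.09 to 0.13). The 22 tRNAs summed to 290 and 492 counts in the KO and WT libraries, a log2 ratio of -0.69 (interval -0.90 to -0.48), which is 1.61-fold lower in KO. The 2 rRNAs summed to 255 counts in the KO library and 283 in the WT library, and the interval of their log2 ratio of -0.08 included 0 (-0.33 to 0.17). Bulk RNA does not give the number of mitochondria or the amount of RNA in each, and the source of these differences was not tested.

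Set against the mRNAs of the same library, which makes the comparison free of library scaling, the tRNAs were lower in KO by a log2 odds ratio of -0.80 (interval -1.01 to -0.59). The same value for the rRNAs was -0.19 (interval -0.43 to 0.06). The mRNA sum rests on MT-CO1, which held 50.9% of all mitochondrial counts in the KO library and 46.1% in the WT library. Without MT-CO1 the other 12 mRNAs summed to 18905 counts in KO and 20176 in WT, and the log2 ratio turned to -0.020 (interval -0.05 to 0.01). The sign of the class sum therefore depended on its most abundant member, and 9 of the 13 mRNAs had ratios below 0.

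**Figure D1:**
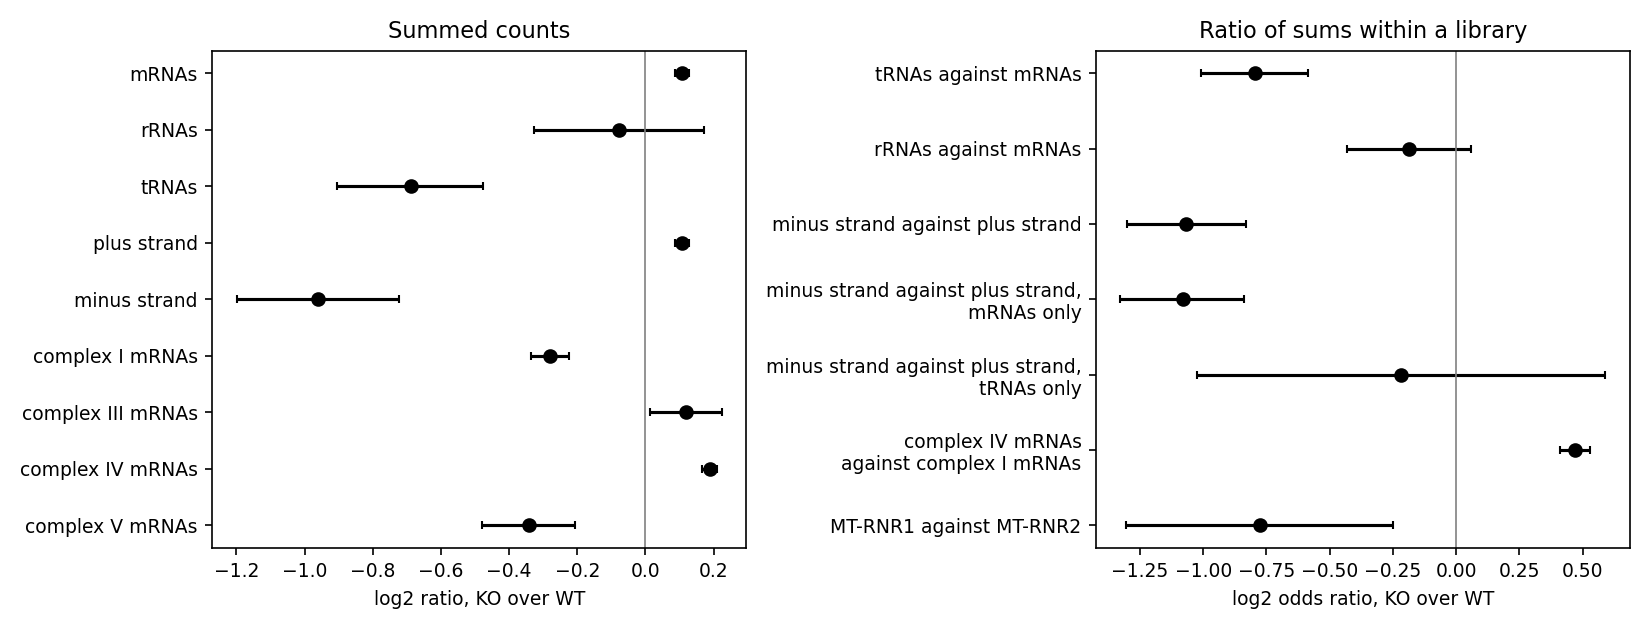
Left, log2 ratios (KO over WT) of summed counts for the RNA classes, strands and mRNAs by complex; right, log2 odds ratios of a pair of sums between the KO and WT libraries; bars are 95% counting intervals. The minus strand (-0.96) and the tRNAs (-0.69) lie well below 0, and the complex IV mRNAs (0.19) lie above it. Most minus-strand counts are of MT-ND6.

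Counted gene by gene, 17 of the 37 members had a mean of at least 1 CPM: the 13 mRNAs, both rRNAs, MT-TV and MT-TM. None of the 17 differed by 2-fold or more with an interval excluding 0, a rule that called 2.92% of the 12886 genes tested. That was 1.28% higher in KO (165 genes) and 1.64% lower (211 genes), or 201 higher and 167 lower when libraries were scaled by total counts. At 1.5-fold, where 10.8% of all tested genes were called, 5.5% lower and 5.25% higher, 3 members were lower (MT-ND6, MT-TV and MT-RNR1) and 0 were higher. MT-RNR1 did not reach 1.5-fold with total-count scaling (log2 ratio -0.52) or with totals taken without the 5 highest genes (-0.56). Ignoring size, the interval excluded 0 for 11 members that were lower and 3 that were higher, against 25.5% and 26.4% of all tested genes. With total-count scaling, which adds 0.073 to every log2 ratio, 7 members were lower and 3 higher, beside 18.8% and 35.2% of all tested genes. The members' median log2 ratio was -0.27, beside 0.01 over all tested genes. Abundant members such as MT-CO1, MT-CO3 and MT-CO2 (629.3, 266.4 and 107.5 CPM in KO) have narrow counting intervals that set small ratios apart from 0. Of the lower members, MT-RNR1, MT-TV, MT-TM, MT-ND4L and MT-ND6 lay between 2.16 and 6.22 CPM in KO.

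**Figure D2:**
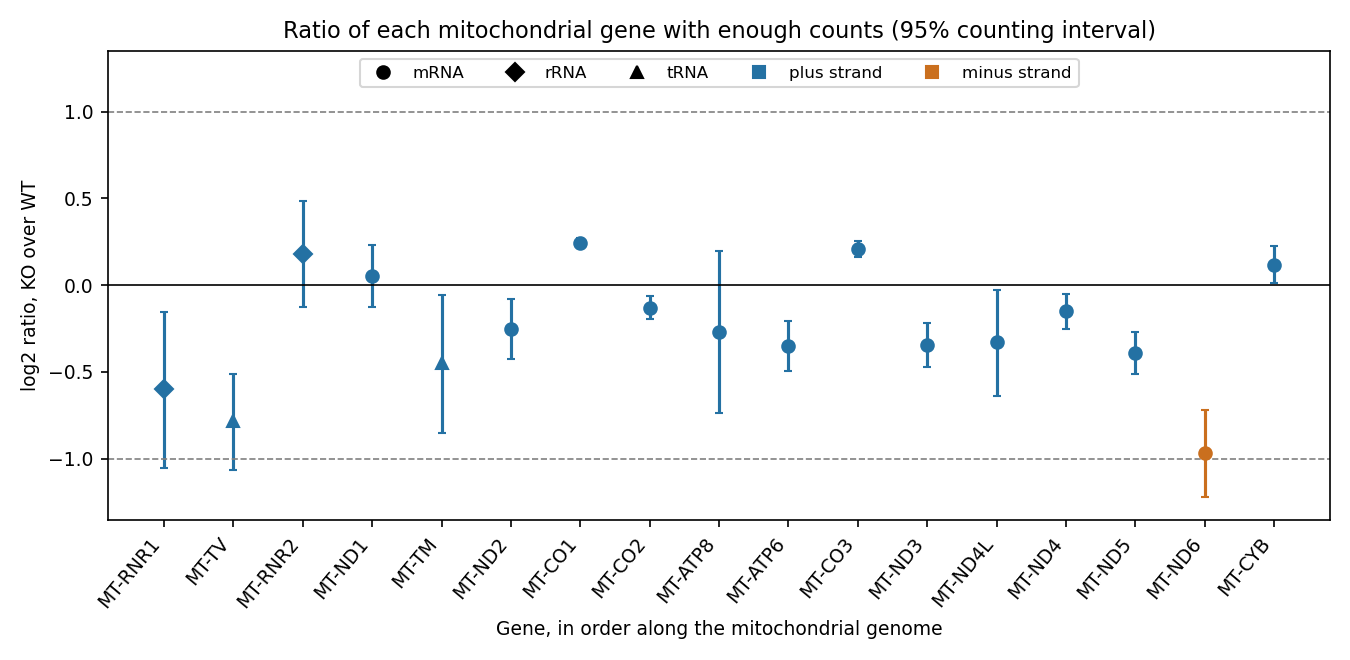
Log2 ratio (KO over WT) of the 17 mitochondrial genes with a mean of at least 1 CPM, in genome order, with 95% counting intervals; colour gives the strand, the marker the RNA class, and dashed lines a 2-fold difference. MT-ND6 (-0.96) lies lowest, and MT-CO1 (0.24), MT-CO3 (0.21) and MT-CYB (0.12) are the mRNAs whose intervals lie above 0.

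The strands were compared next. The 9 minus-strand genes summed to 219 counts in the KO library and 448 in the WT library, a log2 ratio of -0.96 (interval -1.20 to -0.72), which is 1.94-fold lower in KO. The 28 plus-strand genes summed to 39356 and 38426 counts in the KO and WT libraries, a log2 ratio of 0.11 (interval 0.09 to 0.13). Plus-strand counts outnumbered minus-strand counts 179.7 to 1 in KO and 85.8 to 1 in WT, a log2 odds ratio of -1.07 for minus against plus (interval -1.30 to -0.83). The minus-strand sum rests on MT-ND6, which gave 199 of its counts in KO and 409 in WT. The plus-strand sum carries MT-CO1 as well, and without it its log2 ratio was -0.019 (-0.020 for the mRNAs alone). With both MT-ND6 and MT-CO1 left out, the log2 odds ratio for minus against plus was -0.87 (interval -1.65 to -0.09). The minus strand was then 8 tRNAs with 20 counts in KO and 39 in WT, whereas most plus-strand counts were still of mRNAs. That value therefore compares RNA classes as well as strands.

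The strands hold different classes, so they were also compared within a class. Among mRNAs, MT-ND6 was set against the 12 plus-strand mRNAs, and the log2 odds ratio was -1.08 (interval -1.33 to -0.84). Among tRNAs, the 8 of the minus strand summed to 20 counts in KO and 39 in WT, and the 14 of the plus strand to 270 in KO and 453 in WT. Their log2 odds ratio of -0.22 had an interval from -1.02 to 0.59, so a strand difference among tRNAs was not detectable at this depth. The tRNA sums had log2 ratios of -0.89 on the minus strand (interval -1.75 to -0.08) and -0.67 on the plus strand (interval -0.90 to -0.45). The plus-strand value rests on MT-TV and MT-TM, without which 9 counts in KO and 14 in WT were left and the interval included 0 (log2 ratio -0.56, interval -1.95 to 0.75).

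MT-ND6 (ENSG00000198695.2), the minus-strand subunit of complex I, NADH dehydrogenase, had 199 counts in the KO library and 409 in the WT library. Its log2 ratio of -0.96 (interval -1.22 to -0.72) corresponds to 1.95-fold lower expression in KO, and 1.82% of all tested genes lay at or below it. Per length it stood at 11.9 CPM per kilobase in KO and 23.2 in WT. That placed it 12th of the 13 mRNAs in the KO library and 8th in the WT library. MT-ND5, whose gene abuts MT-ND6 on the opposite strand, had 951 counts in KO and 1312 in WT, and MT-ND6 was lower in KO relative to MT-ND5 (log2 odds ratio -0.58, interval -0.85 to -0.30). The kit is stranded, but the sources used here do not give the strand setting of the counting. Had strand been ignored, any plus-strand RNA across MT-ND6 would be part of its count.

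The remaining 6 complex I mRNAs are of the plus strand, and 5 of them were lower in KO with intervals excluding 0. MT-ND5 had the lowest log2 ratio, -0.39 (interval -0.51 to -0.27). MT-ND3 had 899 counts in KO and 1202 in WT, with a log2 ratio of -0.35 (interval -0.47 to -0.22). MT-ND2 had 493 counts in KO and 618 in WT (-0.25, interval -0.43 to -0.08). MT-ND1, whose gene follows MT-RNR2 and MT-TL1, was the exception, with 519 counts in KO and 526 in WT and a log2 ratio of 0.05 (interval -0.12 to 0.23).

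MT-ND4L and MT-ND4 are carried on a shared mRNA and overlap by 7 nucleotides. MT-ND4L had 158 counts in KO and 209 in WT, a log2 ratio of -0.33 (interval -0.64 to -0.03), and MT-ND4 had 1457 in KO and 1701 in WT, a log2 ratio of -0.15 (interval -0.25 to -0.05). Their ratio to each other did not differ beyond counting error (log2 odds ratio -0.18, interval -0.49 to 0.13). With total-count scaling the intervals of MT-ND4 and MT-ND4L reached 0, as did that of MT-ND4L when the library totals were taken without the 5 highest genes. All 7 complex I mRNAs summed to 4676 counts in KO and 5977 in WT, a log2 ratio of -0.28 (interval -0.34 to -0.23).

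MT-CYB, the cytochrome b of complex III, had 1495 counts in KO and 1449 in WT. Its log2 ratio was 0.12 (interval 0.01 to 0.22), and with DESeq2 size factors the interval reached 0 (-0.01 to 0.20). MT-CYB is the last plus-strand mRNA, 2 genes beyond MT-ND6 in genome order, so the lowest mRNA ratio and one of the highest came from near neighbours on opposite strands.

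Complex IV, cytochrome c oxidase, has 3 mitochondrial mRNAs, and they held the 3 highest levels per length in both libraries. MT-CO1, the catalytic subunit, had 20125 counts in KO and 17923 in WT, or 408.1 and 345.4 CPM per kilobase. Its log2 ratio was 0.24 (interval 0.21 to 0.27). MT-CO3 had 8519 counts in KO and 7754 in WT, a log2 ratio of 0.21 (interval 0.16 to 0.25). The ratio of MT-CO1 to MT-CO3 differed little between the libraries, 2.36 in KO and 2.31 in WT (log2 odds ratio 0.03, interval -0.02 to 0.08).

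MT-CO2, which carries the entry site for electrons from cytochrome c, had 3439 counts in KO and 3961 in WT. Its log2 ratio was -0.13 (interval -0.20 to -0.06), and with total-count scaling -0.06 (interval -0.12 to 0.01). MT-CO1 was higher in KO relative to MT-CO2 of the same complex, with a log2 odds ratio of 0.37 (interval 0.30 to 0.44). The sums per complex, and the pairs of single genes set against each other, were chosen after the values of the members had been seen. Complex IV against complex I gave a log2 odds ratio of 0.47 (interval 0.41 to 0.53), with 6.86 complex IV counts per complex I count in KO and 4.96 in WT.

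MT-ATP8 and MT-ATP6, subunits of the complex V ATP synthase, are translated from a shared mRNA and overlap by 46 nucleotides, which leaves uncertain how their shared reads were split. MT-ATP6 had 705 counts in KO and 945 in WT, with a log2 ratio of -0.35 (interval -0.49 to -0.21). MT-ATP8 had 71 counts in KO and 90 in WT, with a log2 ratio of -0.27 whose interval included 0 (-0.74 to 0.20). Their sum, 776 counts in KO and 1035 in WT, had a log2 ratio of -0.34 (interval -0.48 to -0.21). MT-CO3, directly downstream, overlaps MT-ATP6 by 1 nucleotide and yet lay above 0.

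Levels per length ranged 38.0-fold among the 13 mRNAs in KO and 26.7-fold in WT. The first 4 places were alike in both libraries, MT-CO1 (408.1 CPM per kilobase in KO and 345.4 in WT), MT-CO3 (339.8 and 293.9), MT-CO2 (157.2 and 172.1) and MT-ND3 (81.3 and 103.2). MT-ATP8 was last in both, at 10.7 CPM per kilobase in KO and 12.9 in WT. The middle of the order changed places: MT-ATP6 was 7th in KO and 5th in WT, and MT-ND1 was 8th in KO and 12th in WT. Several neighbours in that stretch were close in KO, as MT-ND1 (17.0), MT-ND4L (16.6) and MT-ND5 (16.4) show. In WT, MT-ND1 stood lower (16.35) than MT-ND4L (20.91) and MT-ND5 (21.52). Differences in level between genes of a library were not tested.

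**Figure D3:**
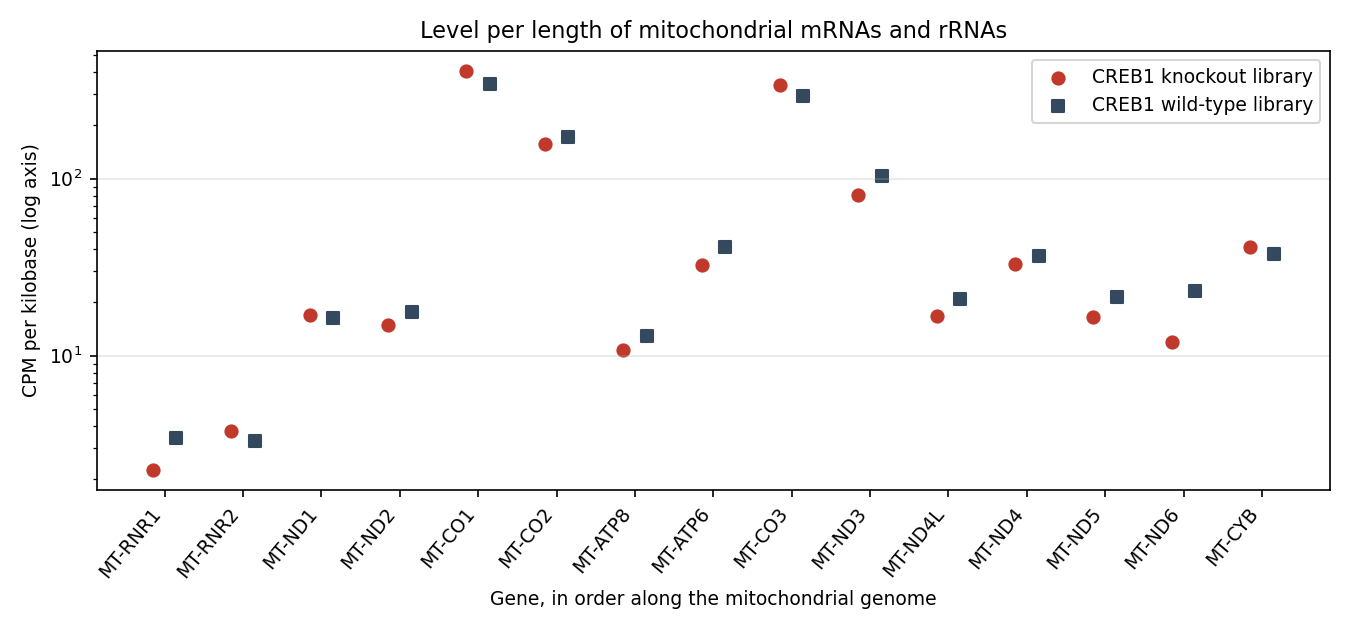
Level per length (CPM per kilobase, log axis) of the 13 mitochondrial mRNAs and 2 rRNAs in genome order, 1 point per library. MT-CO1 and MT-CO3 stand highest in both libraries, both rRNAs lie below every mRNA, and the widest gap between KO and WT is that of MT-ND6 (11.9 and 23.2).

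The rRNAs were the lowest of the longer transcripts, in libraries made after rRNA removal. MT-RNR1, the 12S rRNA of the small mitochondrial ribosomal subunit, had 69 counts in KO and 110 in WT, or 2.26 and 3.43 CPM per kilobase. MT-RNR2, the 16S rRNA of the large subunit, had 186 counts in KO and 173 in WT, or 3.73 and 3.30 CPM per kilobase. The 2 rRNAs differed in direction. MT-RNR1 was 1.51-fold lower in KO (log2 ratio -0.60, interval -1.06 to -0.15), whereas the log2 ratio of MT-RNR2 was 0.18 with an interval that included 0 (-0.13 to 0.49). Set against each other they gave a log2 odds ratio of -0.78 (interval -1.30 to -0.25). The 511 nuclear genes annotated as rRNA or rRNA pseudogene had 0 counts in both libraries, so what the removal left of nuclear rRNA cannot be set beside these values. Whether the kit had probes for the mitochondrial rRNAs is not stated, and the part of the removal in these ratios was not tested.

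Of the 22 tRNAs, 13 had at least 1 count in either library and 9 had none in both (MT-TI, MT-TA, MT-TY, MT-TD, MT-TG, MT-TR, MT-TS2, MT-TT and MT-TP). A count of 0 allows up to 3 counts per library. Mature tRNAs are short, folded and modified and are poorly captured by such libraries, so counts at tRNA genes can come from precursors as well. Their part was not tested. MT-TV, between the 2 rRNA genes, had 170 counts in KO and 308 in WT, and its log2 ratio was -0.78 (interval -1.06 to -0.51; 1.72-fold lower in KO). MT-TM, just upstream of MT-ND2, had 91 counts in KO and 131 in WT, a log2 ratio of -0.45 (interval -0.85 to -0.06; with total-count scaling -0.78 to 0.02). MT-TV and MT-TM together left 29 counts in KO and 53 in WT for the other 20 tRNAs, whose sum had a log2 ratio of -0.80 (interval -1.50 to -0.12). Of these, 20 counts in KO and 39 in WT were of the minus strand.

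MT-TV was set against its neighbours, with which it is cut from a shared precursor. Against MT-RNR1 upstream the log2 odds ratio of MT-TV was -0.18 (interval -0.70 to 0.33), and against MT-RNR2 downstream it was -0.96 (interval -1.37 to -0.56). MT-TM against MT-ND2 gave -0.20 (interval -0.62 to 0.22). The precursor carries MT-RNR1, MT-TV and MT-RNR2 in that order. Both MT-RNR1 and MT-TV were lower in KO relative to MT-RNR2 beyond counting error.

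On the minus strand, MT-TC had 9 counts in KO and 18 in WT, MT-TN 4 and 6, MT-TE 3 and 3, and MT-TS1 1 and 0. MT-TQ had 3 counts in KO and 12 in WT, a log2 ratio of -1.77 with an interval from -4.39 to -0.04. At a mean below 1 CPM it was not among the tested members. Without that minimum it would be called at 2-fold, as would 1086 of the 23251 genes with counts. On the plus strand, MT-TH had 5 counts in KO and 7 in WT. MT-TF, MT-TL1, MT-TL2, MT-TW and MT-TK had between 0 and 3 counts in each library. Of the 13 tRNAs with counts, 9 were lower in KO, 2 were higher and 2 were equal, and the interval of the ratio excluded 0 for MT-TV, MT-TM and MT-TQ.

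**Figure D4:**
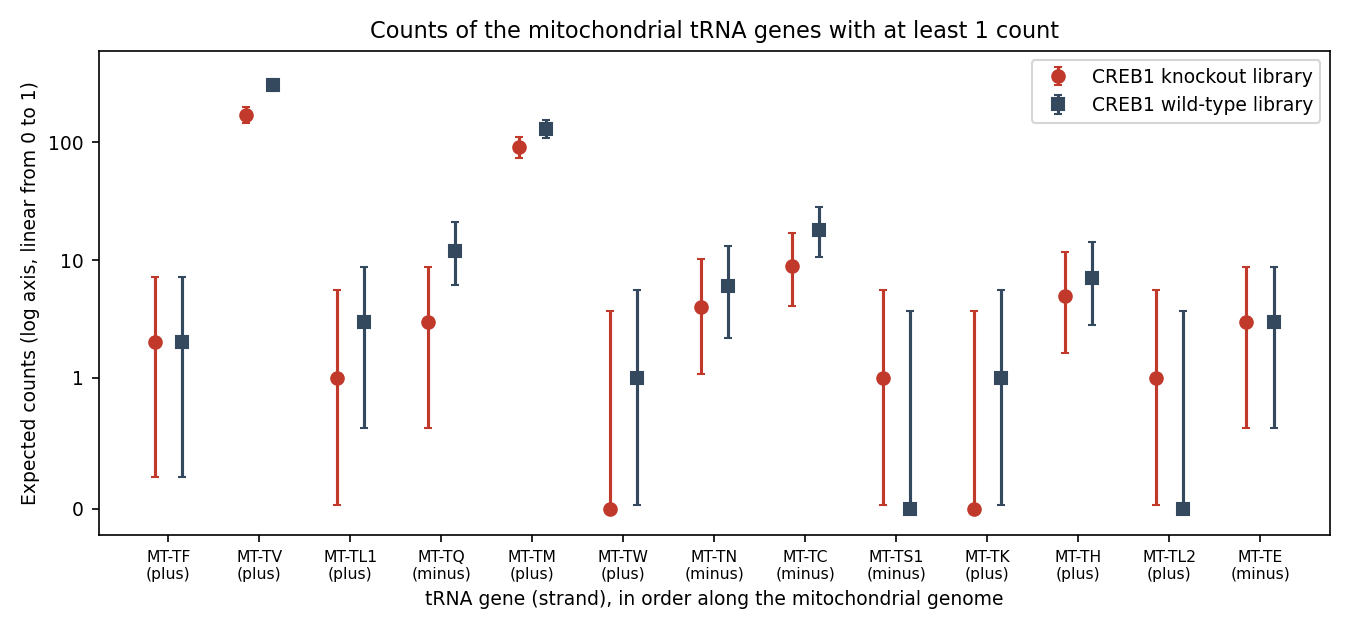
Expected counts of the 13 mitochondrial tRNA genes with at least 1 count in either library, with exact 95% Poisson intervals; the axis is logarithmic above 1 and linear below. MT-TV (170 in KO, 308 in WT) and MT-TM (91 and 131) stand far above the others, and the intervals of KO and WT are apart for MT-TV and overlap for the other 12.

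The nuclear partners of these genes showed small differences, and their counts depended on the scaling. Of 75 tested nuclear genes for subunits of complexes I, III, IV and V, 38 were lower in KO with an interval excluding 0 and 6 were higher. Over all tested genes these shares were 25.5% lower and 26.4% higher. The median log2 ratio of the 75 was -0.08, beside 0.01 for all genes. With total-count scaling, 24 of the 75 were lower and 20 higher, beside 18.8% and 35.2% of all genes, and the median was -0.0098, beside 0.08 for all genes. None was called at 2-fold, a rule that called 2.92% of all genes. NDUFC2 of complex I was the one called at 1.5-fold (978 counts in KO and 1615 in WT, log2 ratio -0.65), and its call ended with total-count scaling (-0.58). In complex I, 14 of 37 were lower and 3 higher, with NDUFB6 (-0.48) and NDUFV1 (-0.38) next in size. The median of complex I was -0.05 and turned positive (0.022) with total-count scaling, with 10 lower and 13 higher.

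In complex III, 7 of 9 were lower and 1 higher with intervals excluding 0, with a median log2 ratio of -0.21 (-0.14 with total-count scaling). UQCRFS1 (-0.30), UQCRC2 (-0.30) and UQCR10 (-0.29) were the lowest, whereas the mitochondrial MT-CYB of that complex stood at 0.12. In complex IV, 8 of 11 were lower and 1 higher, with a median of -0.13 (-0.055 with total-count scaling, with 3 lower and 1 higher), led by NDUFA4 (-0.35), COX6A1 (-0.22) and COX7A2 (-0.16). All 3 lay on the other side of 0 from MT-CO1 and MT-CO3 and on the same side as MT-CO2. In complex V, 9 of 18 were lower and 1 higher, with a median of -0.08 (-0.0077 with total-count scaling, with 5 lower and 5 higher). ATP5F1B, the catalytic beta subunit, had a log2 ratio of -0.33, ATP5MJ of -0.30 and ATP5PF of 0.19. The medians of the mitochondrial and nuclear genes thus lay on the same side of 0 in complex V and on opposite sides in complexes III and IV, with 1 to 7 mitochondrial genes each. In complex I they lay on the same side, but on opposite sides with total-count scaling. That contrast was not tested.

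**Figure D5:**
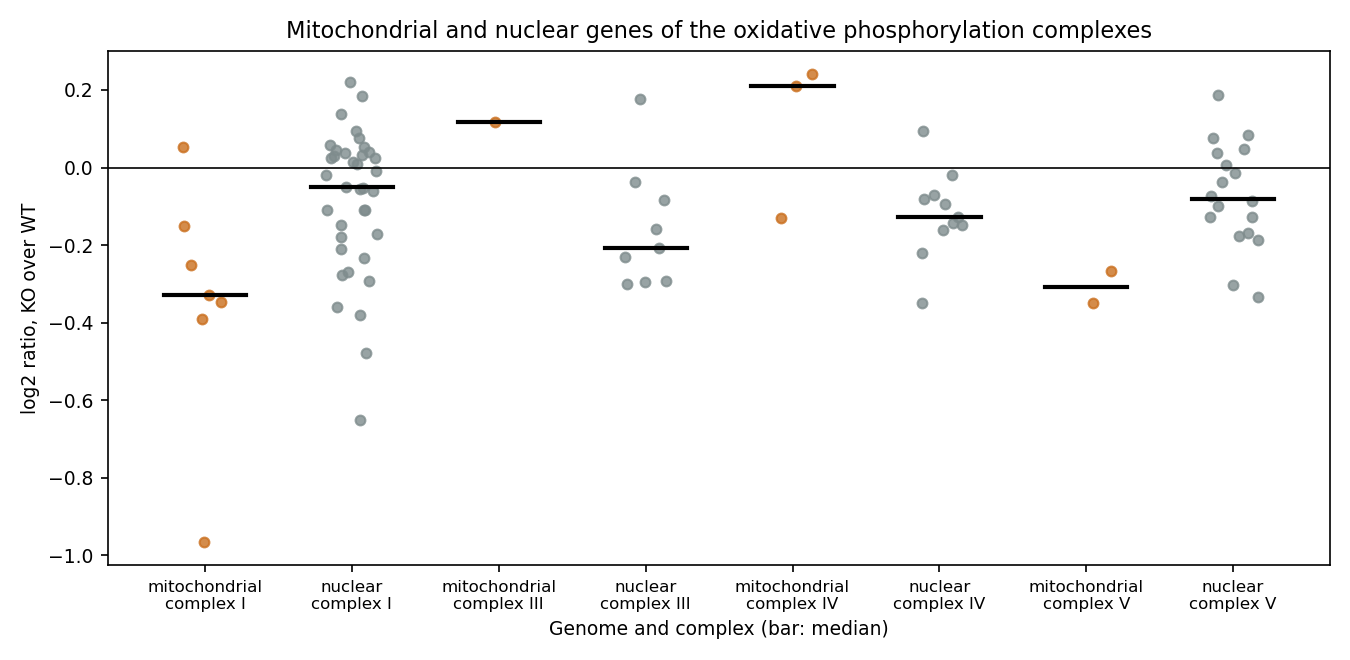
Log2 ratios (KO over WT) of the mitochondrial genes (orange) and the tested nuclear genes (grey) of complexes I, III, IV and V, 1 point per gene, with medians as bars. The mitochondrial complex IV genes have a median of 0.21 and the nuclear ones of -0.13, whereas the medians of both groups lie below 0 in complexes I and V (that of nuclear complex I lies at 0.022 with total-count scaling).

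The machinery that maintains mitochondrial DNA and that makes and processes its RNA was measured through 78 nuclear genes in 4 lists. All 78 were tested, and 25 were lower and 12 higher with intervals excluding 0, beside 25.5% lower and 26.4% higher of all genes. With total-count scaling this balance turned, with 15 lower and 20 higher, beside 18.8% and 35.2% of all genes. None of the 78 was called at 2-fold, beside 2.92% of all genes. In the list for transcription, 5 of 10 were lower and 1 higher, with a median log2 ratio of -0.13 (-0.056 with total-count scaling, with 2 lower and 1 higher). MTERF1, which terminates mitochondrial transcription, was 1.41-fold higher (273 counts in KO and 204 in WT, log2 ratio 0.49). POLRMT, the mitochondrial RNA polymerase, had 2233 counts in KO and 2897 in WT (-0.30, interval -0.38 to -0.22), and MTERF4 stood at -0.27. TFAM, the factor that packages mitochondrial DNA and starts transcription, was chosen after its value was seen and stood at -0.17 (interval -0.30 to -0.04).

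In the list for replication and the nucleoid, 5 of 18 were lower and 3 higher, with a median of -0.02 that turned positive (0.058) with total-count scaling, with 4 lower and 7 higher. The nuclease EXOG was 1.64-fold higher from low counts (92 in KO and 59 in WT, interval of the log2 ratio 0.23 to 1.21). POLG2, the accessory subunit of the mitochondrial DNA polymerase, stood at -0.55 and RRM2B, a ribonucleotide reductase subunit, at -0.45. For cleavage and modification, 9 of 31 were lower and 3 higher, with a median of -0.09 (-0.018 with total-count scaling, with 5 lower and 4 higher). OSGEPL1, a tRNA-modifying enzyme of mitochondria, was 1.57-fold lower (104 counts in KO and 172 in WT), a call at 1.5-fold that ended with total-count scaling (log2 ratio -0.58). The tRNA methyltransferase TRMT5 stood at -0.46 and the demethylase ALKBH1 at 0.48.

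In the list for RNA stability and decay, 6 of 20 were lower and 5 higher, with a median of 0.04 (0.12 with total-count scaling, with 4 lower and 8 higher). SLC25A33, a carrier of pyrimidine nucleotides into mitochondria, was 1.71-fold lower (380 counts in KO and 685 in WT, log2 ratio -0.78, interval -0.96 to -0.59). SUPV3L1, the helicase of the mitochondrial degradosome, stood at -0.38 (interval -0.54 to -0.23). FASTK, a mitochondrial RNA granule protein known for its part in keeping up MT-ND6 mRNA, had 2149 counts in KO and 1670 in WT, a log2 ratio of 0.44 (interval 0.34 to 0.53). FASTK was higher in the library in which MT-ND6 was lower, and the relation of the pair was not tested.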

How the data were processed

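Strand-specific total RNA libraries of 1 CREB1 knockout clone and 1 wild-type culture of HCT116 cells were compared. The authors' values are expected counts, deposited unscaled. The tools named in the submitters' processing notes are RSEM 1.2.26, STAR 2.4.2a and cutadapt 2.0, and the build is hg19. The sources used here do not give the annotation release or strand setting. RSEM shares out ambiguous reads between genes.

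Names, strands, gene order, lengths and transcript sequences came from GENCODE 29 (GRCh38), matched by Ensembl identifier without version (52338 of 57820 identifiers, 90.5%). No coordinates are given, because the builds differ. Unmatched identifiers held 35.2% of the KO counts and 37.0% of the WT counts and remained in the totals.

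Expected counts were rounded. Libraries were scaled by TMM (edgeR 4.0.16, R 4.3.3), and log2 ratios of single genes used a prior count of 0.5. Intervals are exact 95% Clopper-Pearson intervals of the conditional binomial for ratios, and 95% Wald intervals for odds ratios. They treat read pairs as independent molecules. Genes with a mean of at least 1 CPM were tested, and a call needed 2-fold (or 1.5-fold) and an interval excluding 0. The ratios, intervals and calls were tested on simulated data that held counting error alone. That check covers the computation and not differences between cultures, clones or library preparations.

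Alternatives were total-count, upper-quartile and DESeq2 1.42.0 scaling, totals without the 5 highest genes, other CPM minima, a prior count of 2, unrounded counts, addition of nuclear copies and removal of the highest member. The members and gene lists were chosen with earlier results of these data known. All 37 members are described, with CREB1, up to 3 genes of each nuclear list by size of ratio, and the 5 nuclear copies with the most counts. Of the list entries, MRM1 and the endothelial marker PECAM1 matched no identifier.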

Additional observations from a re-analysis of the deposited data

How the results depend on the processing

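The 5 class and strand sums kept their direction and their side of 0 under the 4 other scalings, with nuclear copies added and without rounding. Without the highest member, the sum of mRNAs turned to -0.020 and that of plus-strand genes to -0.019, since MT-CO1 is left out. The rRNA sum, then MT-RNR1 alone, became -0.60 and excluded 0, as did the rRNAs against mRNAs (-0.58). Restricted to tRNAs, minus against plus strand was -0.22 and included 0. Of 119 recomputed values of the 17 tested members, 113 kept their sign and side of 0, and the other 6 kept their sign with intervals that reached 0. They concern MT-CO2, MT-ND4, MT-TM and MT-ND4L with total counts, MT-ND4L without the 5 highest genes and MT-CYB with DESeq2 size factors. Without a CPM minimum, 1086 of the 23251 genes with counts were called at 2-fold. Among them were 1 of the 28 members with counts (MT-TQ) and 1 nuclear list gene (COX6B2). With at least 5 CPM, 137 genes were called, and 0 of them were members. At 1.5-fold, the 4 called nuclear genes (NDUFC2, EXOG, OSGEPL1 and SLC25A33) became 2 with total counts, which left EXOG and SLC25A33. The median of the replication list turned to 0.058 with total counts and 0.023 without the 5 highest genes, and that of complex I to 0.022 with total counts. No paired analysis was possible because each group has 1 library, and for the same reason no replicate could be left out. The tRNA values are limited by depth, since 16 of 22 tRNAs had at most 3 counts in both libraries.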

Other observations

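Nuclear copies of mitochondrial genes took few reads. Of 399 pseudogenes and related genes named after a member, 18 had counts, with sums of 148 in KO and 127 in WT, or 0.373% and 0.327% of the mitochondrial counts. MTATP6P1 had 60.5 expected counts in KO and 62.0 in WT, MTCO1P12 59.1 and 49.0, MTCO3P12 7.01 and 6.01, MTCO2P12 7.0 and 2.0, and MTND2P28 2.97 and 2.11. These copies are near-identical to their mitochondrial genes, so the division of shared reads is uncertain. The share was largest for MT-ATP6, at 8.72% in KO and 6.56% in WT, and its log2 ratio moved from -0.35 to -0.32 when the copies were added.

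Where the RNAs of a list drawn up as nuclear-retained lie in these cells was not measured. That list, which also holds NORAD, included 6 tested genes. Of these, 4 were higher in KO with intervals excluding 0 and none lower, beside 26.4% higher and 25.5% lower of all tested genes. TUG1 had a log2 ratio of 0.62 (interval 0.44 to 0.80; 618 counts in KO and 424 in WT), NEAT1 of 0.17, KCNQ1OT1 of 0.17 and MALAT1 of 0.06 (interval 0.03 to 0.09). OIP5-AS1 stood at 0.0079 (interval -0.10 to 0.12). NORAD, a mainly cytosolic RNA kept in that list as a contrast, stood at -0.02 (interval -0.08 to 0.05). The part of RNA fraction or recovery in the mitochondrial ratios was not tested.

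COX6B2, the testis form of a complex IV subunit, fell below the CPM minimum and was singled out after its value was seen. It had 1 count in KO and 16 in WT, a log2 ratio of -3.40 with an interval from -9.32 to -1.24. Its ubiquitous counterpart COX6B1 had 4053 counts in KO and 4320 in WT (log2 ratio -0.02, interval -0.08 to 0.04).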
